A study of Homo sapiens with 6 samples.

Results

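The 10 heat shock chaperone genes described here are HSPA1A, HSPA1B, HSPA8, DNAJB1, HSPH1, HSP90AA1, HSP90AB1, HSPB1, HSPD1 and HSPE1. They were taken by symbol from the gene lists of the files, which hold 36601 genes, and all 10 passed the filter on low counts that left 16763 genes for testing. The libraries came from a human neuroblastoma cell line, the clonal subline SK-N-BE(2)-C, so that no other cell type should be present. Cells were captured one by one in small wells with barcoded beads by Seq-Well S3, and RNA molecules were counted by unique molecular identifiers (UMIs). Every group was this same line, with no engineered allele named in the labels. One group received DMSO, the solvent control; the second received TSA, the usual abbreviation of trichostatin A, which blocks the enzymatic activity of histone deacetylases (HDACs); the third received E6R. The title of the series speaks of an inhibitor of the HDAC complex that does not act on the enzyme, and asks how much such a compound changes the transcriptome. Dose, treatment time and the structure of E6R are not given in the sources used here, so TSA and E6R cannot be called matched in dose.

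Molecular chaperones bind unfolded or partly folded proteins and let them fold, move across membranes or be degraded. Hsp70 proteins do this with Hsp40 (DNAJ) partners that deliver clients and start ATP hydrolysis, and with Hsp110 proteins that exchange the nucleotide; Hsp90 proteins take over clients such as kinases and transcription factors, small heat shock proteins hold aggregating proteins, and the Hsp60 chaperonin with its Hsp10 lid folds proteins in the mitochondrial matrix. Many of these genes are switched on by heat shock factor 1 (HSF1), which binds arrays of GAA units in their promoters; in neuroblastoma Hsp90 is known as a chaperone of oncogenic kinases.

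The genes that the results turn on are shown by their promoters, from 250 bases before to 50 bases after the start of a transcript, in the RefSeq set of GRCh38.p14; all 10 genes matched, with 16 promoters among them. The first 3 genes listed rose under TSA, HSPB1 and HSPE1 fell, and HSPD1 is the neighbour that runs from HSPE1 in the opposite direction. Capitals mark every match to GAANNTTC or TTCNNGAA, a pair of the GAA units bound by HSF1; each is its own reverse complement, so both strands are covered. Where a gene has several promoters, the one with most matches is printed. Each runs 5′ to 3′ on the strand of the gene.
HSPA8 (chr11:123062087-123062386, minus strand): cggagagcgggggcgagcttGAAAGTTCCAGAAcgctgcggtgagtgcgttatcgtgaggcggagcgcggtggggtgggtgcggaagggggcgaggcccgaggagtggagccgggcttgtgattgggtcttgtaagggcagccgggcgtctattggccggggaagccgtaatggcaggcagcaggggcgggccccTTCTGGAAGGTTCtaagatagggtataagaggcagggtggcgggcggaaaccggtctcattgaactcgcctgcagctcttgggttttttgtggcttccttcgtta
DNAJB1 (chr19:14518348-14518647, minus strand): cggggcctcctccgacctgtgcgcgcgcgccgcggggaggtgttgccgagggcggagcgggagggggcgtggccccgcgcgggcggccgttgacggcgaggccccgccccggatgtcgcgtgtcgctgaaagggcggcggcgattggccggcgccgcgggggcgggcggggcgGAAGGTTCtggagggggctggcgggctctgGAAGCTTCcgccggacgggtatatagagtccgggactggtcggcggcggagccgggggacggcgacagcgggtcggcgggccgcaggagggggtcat
HSPA1B (chr6:31827488-31827787, plus strand): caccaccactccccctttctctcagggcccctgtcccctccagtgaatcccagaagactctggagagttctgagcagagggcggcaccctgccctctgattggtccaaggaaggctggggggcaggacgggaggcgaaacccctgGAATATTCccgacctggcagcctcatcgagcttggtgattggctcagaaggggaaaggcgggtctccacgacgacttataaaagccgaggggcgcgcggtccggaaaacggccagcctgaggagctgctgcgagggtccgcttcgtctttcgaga
HSPB1 (chr7:76302423-76302722, plus strand): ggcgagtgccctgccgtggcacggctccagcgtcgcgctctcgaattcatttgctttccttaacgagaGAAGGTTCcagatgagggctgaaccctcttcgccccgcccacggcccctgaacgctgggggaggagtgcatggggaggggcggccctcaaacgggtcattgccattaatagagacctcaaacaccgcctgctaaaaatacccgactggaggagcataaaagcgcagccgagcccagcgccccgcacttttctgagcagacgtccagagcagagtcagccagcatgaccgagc
HSPD1 (chr2:197499791-197500090, minus strand): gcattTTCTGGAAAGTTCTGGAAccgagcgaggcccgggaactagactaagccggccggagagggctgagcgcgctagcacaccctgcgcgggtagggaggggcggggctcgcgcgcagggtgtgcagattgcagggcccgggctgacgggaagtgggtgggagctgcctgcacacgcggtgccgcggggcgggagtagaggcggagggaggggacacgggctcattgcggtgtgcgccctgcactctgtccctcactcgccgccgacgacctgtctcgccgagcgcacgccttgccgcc
HSPE1 (chr2:197500129-197500428, plus strand): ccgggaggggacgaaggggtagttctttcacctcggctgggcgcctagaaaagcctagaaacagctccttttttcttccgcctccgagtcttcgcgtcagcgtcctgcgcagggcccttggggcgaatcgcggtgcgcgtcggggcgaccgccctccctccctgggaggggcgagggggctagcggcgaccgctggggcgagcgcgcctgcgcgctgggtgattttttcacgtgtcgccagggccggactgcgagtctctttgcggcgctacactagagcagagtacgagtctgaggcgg
The 2-unit match was present in 13.5% of all 35116 RefSeq promoters of this length, and in a promoter of 8 of the 10 genes (HSPH1 and HSPE1 had none). The longer run of 3 units, GAANNTTCNNGAA on either strand, was present in 0.490% of all promoters, 172 of them, and in a promoter of 4 of the 10 genes: HSPA8, HSP90AA1, HSP90AB1 and HSPD1. Genes had up to 3 promoters and any of them counted, so the counts per gene are not on the scale of the shares of all promoters. Counted per promoter, 4 of the 16 held the longer run. The longer run overlaps the shorter motifs by construction. In HSPA8 the first marked base lay 230 bases before the start, in HSPB1 182, in HSPA1B 105 and in DNAJB1 77. A match is a description of letters and not a measured binding site. The promoters of HSPA1A and HSPA1B had 277 of 300 bases in common in a global alignment (92.3%). The window of HSPE1 shared 204 bases with that of the other HSPD1 promoter, at chr2:197500225-197500524, which is not printed. The printed HSPD1 window ends at 197500090 and that of HSPE1 begins at 197500129, so the matches of HSPD1 lie outside the HSPE1 window. The absence of a match for HSPE1 holds for its window only.

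By GENCODE 29 on GRCh38, HSPA1A (ENSG00000204389) lies on chromosome 6 at 31815464 to 31817946 and HSPA1B (ENSG00000204388) at 31827735 to 31830255, both on the plus strand, the second starting 9789 bases beyond the end of the first. HSPA8 (ENSG00000109971) lies on chromosome 11 at 123057489 to 123063230, minus strand, with 3 small nucleolar RNA genes inside it. DNAJB1 (ENSG00000132002) is on chromosome 19 at 14514770 to 14529770, minus strand, and overlaps TECR on the other strand. HSPH1 (ENSG00000120694) is on chromosome 13 at 31134974 to 31162388, minus strand. HSP90AA1 (ENSG00000080824) is on chromosome 14 at 102080738 to 102139699, minus strand, opposite WDR20, and HSP90AB1 (ENSG00000096384) on chromosome 6 at 44246166 to 44253888, plus strand. HSPB1 (ENSG00000106211) is on chromosome 7 at 76302544 to 76304295, plus strand. HSPD1 (ENSG00000144381), at 197486581 to 197516737 on the minus strand of chromosome 2, overlaps HSPE1 (ENSG00000115541), at 197499994 to 197503457 on the plus strand. Whether the authors' counting used strand, and what it did with reads that fit several genes, is not given in the sources used here. In the last 500 bases of the main transcript, where this kind of library places most reads, the share of 50-base windows also found in a transcript of another gene was 47.5% for HSPE1 (its read-through gene HSPE1-MOB4 and HSPE1 pseudogenes), 22.2% for HSPA1A (mostly HSPA1B), 21.7% for HSPB1 (its pseudogenes), 3.99% for HSPA8, 1.11% for HSPA1B and 0% for the other 5, so counts of the first 3 are the least certain.

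The 6 libraries, 2 per treatment, held 1861 to 3946 cells each after barcodes with under 500 genes or over 20% mitochondrial UMIs were left out, 17589 cells in all. UMIs in cells came to 4206366 and 4793493 for DMSO replicates 1 and 2, 14282282 and 13318200 for TSA, and 15781024 and 26180262 for E6R, so the controls were the shallowest. The mitochondrial share of those UMIs was 5.83% and 6.20% under DMSO, 6.08% and 9.71% under TSA, and 1.55% and 1.51% under E6R. Pairs of libraries shared 11 to 58 cell barcodes (0.351% to 2.11% of the smaller library). All 12 adrenergic neuroblastoma markers had a mean of at least 20 CPM (UMI counts scaled to the library size, with TMM factors) and summed to 4468 to 6969 CPM per library. Sums of 8 mesenchymal markers were 157 and 45.2 CPM under DMSO, 179 and 105 under TSA, and 351 and 54.3 under E6R; 7 blood markers summed to 8.26 to 15.4 CPM and 4 epithelial markers to 0.379 to 2.10. The labels do not say that replicates were separate cultures, so p-values measure the spread between these libraries, which may be technical.

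Under TSA, the chaperone genes did not move as one. HSPA8, HSPA1B and DNAJB1, parts of the cytosolic Hsp70 system, rose by 2.58 to 3.33-fold, while HSPB1 and HSPE1 fell 2.93-fold and 2.46-fold. The other 5 did not pass the test. By edgeR's quasi-likelihood test, called at an adjusted p under 0.05, this makes 5 of 10 called (3 higher, 2 lower), against 29.7% of all genes tested (16.2% higher and 13.5% lower), so a large share of the transcriptome was called beside them. The median log2 fold change was 0.62 over the 10 and -0.01 over all genes tested. With the replicate number as a block, 9 of 10 were called (6 higher, 3 lower), and DESeq2 also called 9. Over all genes, the block called 6047 (3323 higher) and DESeq2 5278 (2864 higher), in place of 4975. DESeq2 was run on all genes with any count, so its numbers of genes, here and below, are not shares of the 16763.

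**Figure D1:**
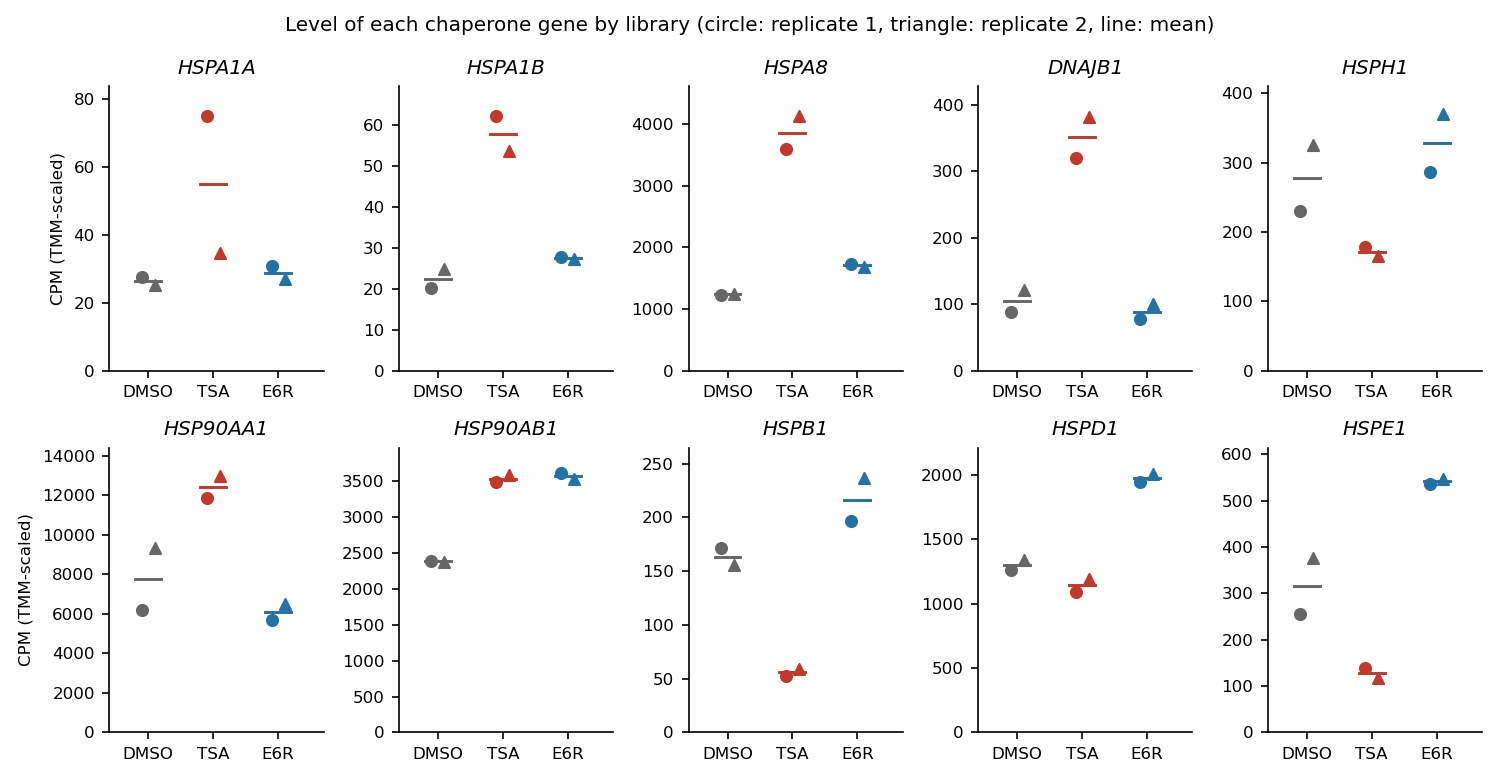
Level of each chaperone gene in CPM (TMM-scaled, linear axis from 0, a separate scale per gene) in the 6 libraries; circles are replicate 1, triangles replicate 2 and lines the mean of 2. HSPA8 and DNAJB1 are highest in both TSA libraries, HSPB1 and HSPE1 are lowest there, and HSPD1 and HSPE1 are highest in both E6R libraries.

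HSPA8, the constitutive cytosolic Hsp70, stood at 1230 and 1251 CPM under DMSO, 3594 and 4130 under TSA, and 1738 and 1682 under E6R. Both TSA libraries lay above all others, the E6R pair lay between, and no groups overlapped. The rise under TSA was 3.11-fold (log2 1.64, SE 0.205, adjusted p = 0.00185 by edgeR). DNAJB1, the main heat-inducible Hsp40 partner of Hsp70, was at 88.2 and 122 CPM under DMSO, 321 and 381 under TSA, and 77.7 and 99.8 under E6R. TSA stood apart, and the ranges of DMSO and E6R overlapped. DNAJB1 rose 3.33-fold under TSA (log2 1.74, SE 0.244, adjusted p = 0.00267).

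The stress-inducible Hsp70 pair was scarce in every library. HSPA1B had 20.1 and 24.8 CPM under DMSO, 62.3 and 53.6 under TSA, and 27.7 and 27.4 under E6R, with no overlap between groups. It rose 2.58-fold under TSA (log2 1.37, SE 0.222, adjusted p = 0.00442). HSPA1A, which encodes a protein nearly identical to that of HSPA1B, gave 27.6 and 25.4 CPM under DMSO, 75.1 and 34.8 under TSA, and 30.9 and 27.0 under E6R. Its high value came from TSA replicate 1, and TSA replicate 2 lay close to the E6R range. The deposited matrix of TSA replicate 2 is named unlike the other 5, for a reason the labels do not give; whether that library was prepared differently was not tested. The log2 difference between TSA and DMSO was 1.05 (SE 0.352, adjusted p = 0.0554), 0.42 without TSA replicate 1 (adjusted p = 0.401) and 1.54 without TSA replicate 2 (adjusted p = 0.0286). With the replicate block it was called (adjusted p = 0.0201). Counts behind the pair, summed over the cells of a library, were 95 to 133 UMIs per library under DMSO, the fewest of the 10 genes.

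HSPH1, an Hsp110 that works as nucleotide exchange factor of Hsp70, was the member of the Hsp70 system with lower values under TSA. It stood at 231 and 325 CPM under DMSO, 178 and 165 under TSA, and 287 and 370 under E6R. The TSA libraries were below all others, and DMSO and E6R overlapped. The log2 difference of -0.69 between TSA and DMSO (SE 0.237) missed the threshold (adjusted p = 0.0600), passed it with the block (0.0310), and was called in 12 of 21 alternative settings.

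The cytosolic Hsp90 genes were higher under TSA without passing the test. HSP90AA1, the inducible form, gave 6207 and 9323 CPM under DMSO, 11860 and 12990 under TSA, and 5715 and 6521 under E6R. The DMSO replicates differed most of any pair for this gene, and the E6R range overlapped theirs. Its log2 difference was 0.68 for TSA against DMSO (SE 0.260, adjusted p = 0.0847; 0.0177 with the block). HSP90AB1, the constitutive form, had 2389 and 2380 CPM under DMSO, 3486 and 3588 under TSA, and 3617 and 3540 under E6R. Here both treated groups lay above DMSO and overlapped each other. The log2 difference was 0.57 under TSA (SE 0.197, adjusted p = 0.0625; 0.0331 with the block).

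HSPB1 (Hsp27), an ATP-independent small heat shock protein, gave 172 and 156 CPM under DMSO, 52.6 and 59.1 under TSA, and 197 and 236 under E6R. The order was E6R, DMSO, TSA with no overlap, and the fall under TSA was 2.93-fold (log2 -1.55, SE 0.198, adjusted p = 0.00201).

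The mitochondrial chaperonin genes share a bidirectional promoter region but differed under TSA. HSPE1 (Hsp10) gave 256 and 375 CPM under DMSO, 138 and 119 under TSA, and 536 and 548 under E6R, 3 groups without overlap. It fell 2.46-fold under TSA (log2 -1.30, SE 0.236, adjusted p = 0.00656), and without TSA replicate 2 the call was lost (log2 -1.15, adjusted p = 0.0758). HSPD1 (Hsp60) gave 1262 and 1338 CPM under DMSO, 1093 and 1191 under TSA, and 1949 and 2005 under E6R. TSA lay just below DMSO, with a log2 difference of -0.19 (SE 0.193, adjusted p = 0.490).

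Beside these changes, the mitochondrial share was higher in TSA replicate 2, and 13 early response genes (FOS, JUN, IER2 and others, which answer handling and many stresses within minutes) summed to 542 and 388 CPM under DMSO, 1452 and 1473 under TSA, and 530 and 420 under E6R. Of the 13, 9 were called higher and 0 lower under TSA (16.2% and 13.5% of all genes); their part in the chaperone results was not tested. In cells with 2% to 6% mitochondrial UMIs only, a filter chosen after seeing the data, 6 chaperone genes were called under TSA, and 3248 genes in all. That filter kept 620 and 1141 cells under DMSO, 613 and 349 under TSA, and 1105 and 1813 under E6R. In TSA replicate 2 this was 349 of 3292 cells. Genes were filtered anew on low counts in the cells kept, so the 3248 genes are not a share of the 16763. HSPA8 was then higher by log2 1.51 (adjusted p = 0.00298), DNAJB1 by 1.66 (0.00442) and HSPA1B by 1.25 (0.0166). HSPB1 was at -1.77 (0.00259), HSPE1 at -1.38 (0.00657) and HSPH1 at -0.94 (0.0398).

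Under E6R, no chaperone gene passed the test against DMSO, and neither did any of the 16763 genes, so that 0% is the background. The highest values belonged to the mitochondrial chaperonin: HSPE1 was 1.72-fold and HSPD1 1.52-fold its DMSO level, followed by HSP90AB1 at 1.5-fold and HSPA8 at 1.38-fold. In none of these 4 did the E6R libraries overlap the DMSO libraries. Their log2 differences were 0.78 (SE 0.233, adjusted p = 0.213) for HSPE1, 0.61 (SE 0.194, adjusted p = 0.218) for HSPD1, 0.59 (SE 0.197, adjusted p = 0.224) for HSP90AB1 and 0.46 (SE 0.200, adjusted p = 0.287) for HSPA8 by edgeR. At an unadjusted p under 0.05, edgeR gave 4 of 10, all higher, against 17.4% of all genes (8.04% higher). DESeq2 called 3 of 10 (HSPD1 at 0.0219, HSP90AB1 at 0.0230 and HSPE1 at 0.0414) and 415 genes in all.

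The other 6 stood closer to DMSO. HSPB1 was at log2 0.41 (SE 0.193, adjusted p = 0.326) and HSPA1B at 0.29 (SE 0.219, adjusted p = 0.519), both without overlap. HSPH1 at 0.24 (adjusted p = 0.629), HSPA1A at 0.13 (0.876), DNAJB1 at -0.25 (0.624) and HSP90AA1 at -0.34 (0.523) overlapped DMSO. In all, 6 of 10 had both E6R libraries above both DMSO libraries (24.6% of all genes did) and 0 had both below (22.7% of all genes). The median log2 fold change was 0.35 over the 10 and 0.03 over all genes tested. The mitochondrial share was lower in both E6R libraries than in any other. In cells with 2% to 6% mitochondrial UMIs, HSPD1 was at log2 0.48, HSP90AB1 at 0.46, HSPE1 at 0.28 and HSPA8 at 0.19, and HSPA1A and HSPA1B turned to -0.26 and -0.36. The median over the 10 genes was then 0.03. With each cell thinned to 1000 UMIs and no limit on the mitochondrial share beyond 20%, it was 0.09, with HSPD1 at 0.45, HSPE1 at 0.44 and HSPA8 at 0.26. The parts of mitochondrial share and of depth per cell in the values under E6R cannot be read from these separately, and were not tested.

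**Figure D2:**
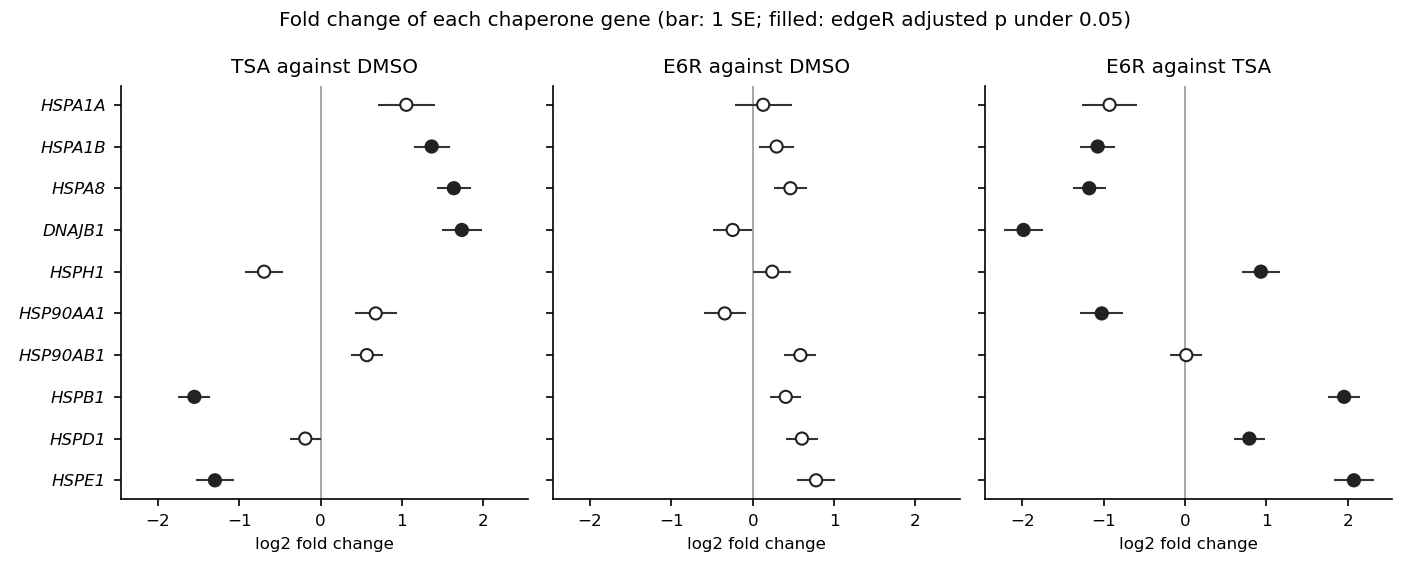
Log2 fold change of each chaperone gene for TSA against DMSO, E6R against DMSO and E6R against TSA; bars are 1 standard error and filled points had an edgeR adjusted p under 0.05. Filled points number 5, 0 and 8 in the 3 panels, and HSP90AB1 lies near 0 only for E6R against TSA.

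Set against each other, the treatments differed in 8 of the 10 genes, where 38.2% of all genes were called (18.7% higher and 19.5% lower under E6R). This comparison shares the TSA and E6R libraries with those above and is no separate evidence. Under E6R, 4 genes were higher than under TSA: HSPE1 by 4.22-fold (log2 2.08, adjusted p = 0.000874), HSPB1 by 3.88-fold (1.96, 0.000549), HSPH1 by 1.91-fold (0.93, 0.0171) and HSPD1 by 1.73-fold (0.79, 0.0148). The 4 lower genes were DNAJB1 by 3.95-fold (log2 -1.98, adjusted p = 0.00104), HSPA8 by 2.26-fold (-1.18, 0.00357), HSPA1B by 2.10-fold (-1.07, 0.00649) and HSP90AA1 by 2.03-fold (-1.02, 0.0175). HSPA1A was at log2 -0.93 (SE 0.343, adjusted p = 0.0650), and was called with the replicate block (log2 -0.85, adjusted p = 0.0257). HSP90AB1, at log2 0.02 (SE 0.196, adjusted p = 0.952), was the member with the smallest difference between the treatments.

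Calls for HSPE1, HSPB1, DNAJB1 and HSPA8 held with each library left out in turn, and others did not. Without TSA replicate 1, 4 genes were called; HSPA1B (adjusted p = 0.0647), HSPH1 (0.0818), HSP90AA1 (0.0667) and HSPD1 (0.105) were lost. HSPH1 was also lost without TSA replicate 2 (0.119) or E6R replicate 2 (0.0528), HSP90AA1 without TSA replicate 2 (0.103) or E6R replicate 1 (0.0916), and HSPD1 without TSA replicate 2 (0.0808). HSPA1A, not called with all libraries, was at log2 -0.26 without TSA replicate 1 (adjusted p = 0.570) and at -1.38 without TSA replicate 2 (0.0241). In these fits the remaining library of a group is assumed to vary like the other groups.

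The summed share of UMIs in the 10 genes and the ratios between partners were read per library; a UMI stands for a molecule caught at its end, so no length correction applies. The 10 genes made up 1.33% and 1.67% of UMIs under DMSO, 1.93% and 1.96% under TSA, and 1.43% and 1.53% under E6R. That is 1.503% ± 0.242 (SD, n = 2), 1.95% ± 0.0250 and 1.48% ± 0.0757; TSA lay above DMSO (the exact two-sided permutation test then gave the smallest p that 2 libraries against 2 allow, which cannot pass 0.05), and E6R overlapped DMSO (exact permutation p = 1). HSP90AA1 alone gave 52.2% and 60.9% of those UMIs under DMSO, 56.9% and 57.2% under TSA, and 40.3% and 43.3% under E6R. Without it, the remaining 9 genes came to 0.636% and 0.656% under DMSO, 0.831% and 0.840% under TSA, and 0.850% and 0.868% under E6R. Both treated groups then lay above DMSO.

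Ratios of UMI counts within a library do not depend on scaling, and are compared here between groups only. HSP90AA1 to HSP90AB1 was 2.60 and 3.92 under DMSO, 3.40 and 3.62 under TSA, and 1.58 and 1.84 under E6R, so E6R was the lowest. HSPD1 to HSPE1 was 4.93 and 3.56 under DMSO, 7.90 and 10.1 under TSA, and 3.64 and 3.66 under E6R. HSPA8 to its exchange factor HSPH1 was 5.33 and 3.85 under DMSO, 20.2 and 24.96 under TSA, and 6.07 and 4.55 under E6R. The last 2 ratios stood apart in TSA, while DMSO and E6R overlapped. HSPA8 to HSPD1, cytosolic against mitochondrial, was 0.975 and 0.935 under DMSO, 3.29 and 3.47 under TSA, and 0.892 and 0.839 under E6R. HSPA1A to HSPA1B ran from 0.648 to 1.37 with all groups overlapping.

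**Figure D3:**
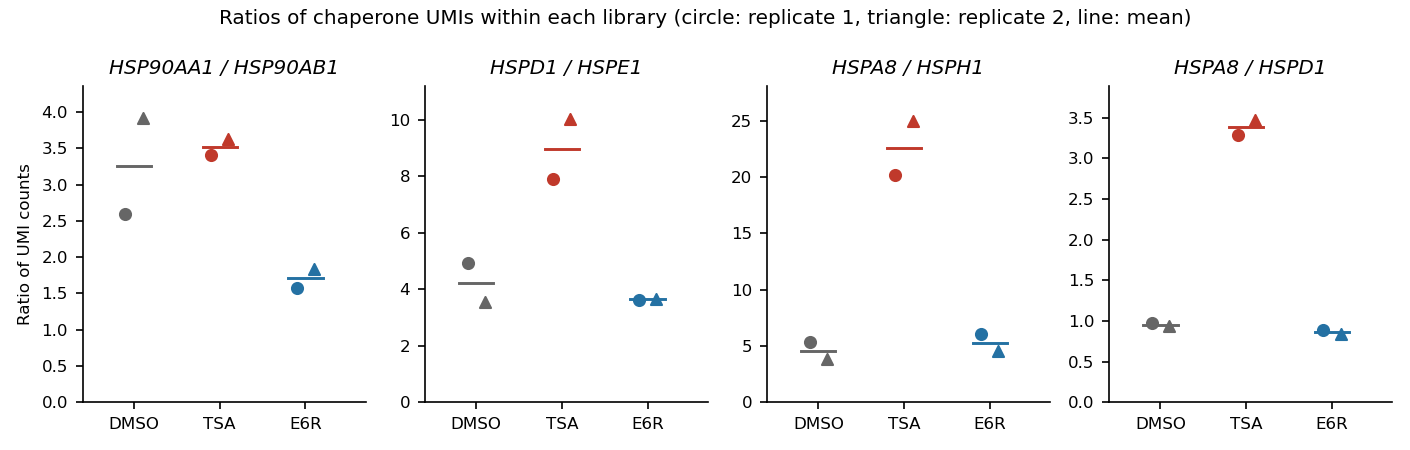
Ratio of UMI counts of 4 pairs of chaperone genes in each library (linear axes from 0); circles are replicate 1, triangles replicate 2 and lines the mean of 2. The HSPA8 ratios are highest in the TSA libraries, and the ratio of HSP90AA1 to HSP90AB1 is lowest in the E6R libraries at 1.58 and 1.84.

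The levels were also read as shares of cells with a UMI. To compare depths, each cell was thinned to 1000 UMIs, leaving out 674 and 1450 shallower cells under DMSO, 615 and 503 under TSA, and 692 and 1718 under E6R. HSPA8 then had a UMI in 67.8% and 74.3% of DMSO cells, 91.7% and 94.4% of TSA cells, and 77.9% and 74.0% of E6R cells (unthinned 71.7%, 76.6%, 96.0%, 97.1%, 86.4% and 79.2%, in the same order). The 95% Wilson interval of the first of these shares was 65.1% to 70.4%; such intervals cover counting error only. Cells with 5 or more HSPA8 UMIs made up 2.53% and 1.72% under DMSO, 26.2% and 30.5% under TSA, and 4.82% and 2.74% under E6R. Both shares were higher in each TSA library than in any other library.

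DNAJB1 was detected in 8.17% and 12.7% of thinned DMSO cells, 22.7% and 25.9% of TSA cells, and 7.28% and 9.43% of E6R cells. Without thinning, its shares were 16.2% and 16.8%, 46.2% and 47.6%, and 25.2% and 22.7%. HSPB1 had a UMI in 16.4% and 14.6% of thinned DMSO cells, 3.996% and 4.37% of TSA cells, and 16.5% and 18.3% of E6R cells. For HSPE1 these shares were 23.0% and 32.7%, 12.5% and 9.50%, and 36.5% and 33.8%. HSPD1 gave 71.4% and 74.9%, 61.5% and 60.9%, and 80.7% and 82.9%. The inducible Hsp70 pair was near its detection limit per cell: HSPA1A was found in 2.18% to 6.42% and HSPA1B in 1.43% to 4.27% of thinned cells over the 6 libraries. HSP90AA1 was found in 98.5% or more of thinned cells everywhere, and HSP90AB1 in 89.7% to 96.2%.

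**Figure D4:**
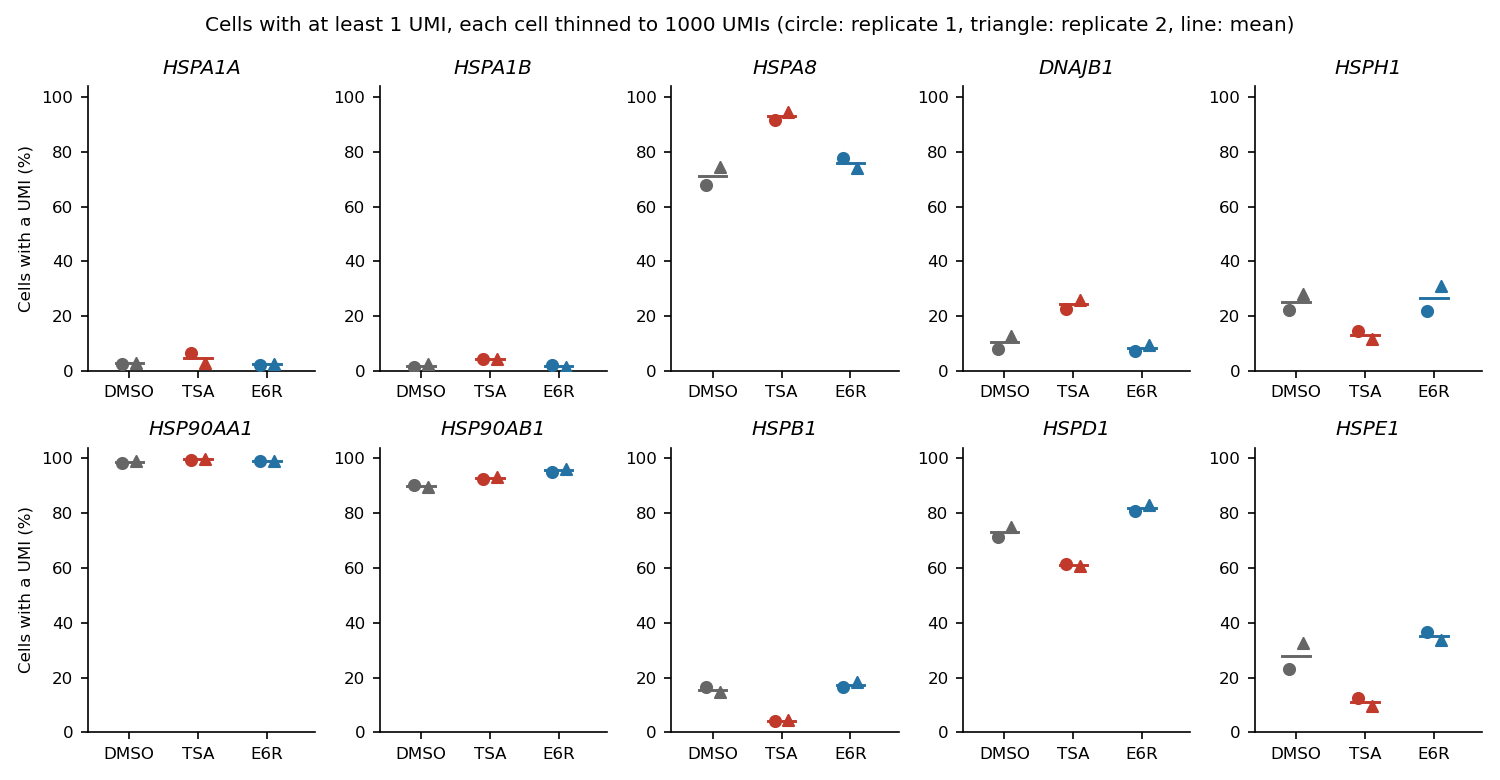
Percent of cells with at least 1 UMI of each chaperone gene after thinning every cell to 1000 UMIs; circles are replicate 1, triangles replicate 2 and lines the mean of 2. HSPA8 and DNAJB1 are highest and HSPB1, HSPD1 and HSPE1 lowest in both TSA libraries, while HSP90AA1 is near 100% throughout.

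No cell type that lacks these genes is present to set the background of free RNA. Barcodes with under 500 genes, which include empty wells, gave HSPA8 at 1069 and 1243 CPM (plain, without TMM) under DMSO, 2598 and 2839 under TSA, and 1518 and 1455 under E6R. HSPB1 there was at 185 and 163, 34.5 and 39.5, and 155 and 195. The small barcodes thus carried the difference of TSA from the other groups for both genes, while DMSO and E6R overlapped there for HSPB1. The share of a low gene's UMIs that came from free RNA was not tested. Within libraries, counts of the 10 genes were only weakly related across thinned cells. The strongest pair by median Pearson r over the 6 libraries was HSP90AA1 with HSPD1 (0.155). The highest single value was 0.288 for HSP90AA1 with HSP90AB1 in E6R replicate 2, over 2228 cells. For that pair r was above 0 in every library, with a median of 0.147 and a lowest value of 0.0346 in TSA replicate 2. Both of its genes were found in most thinned cells. For genes found in few cells, such as HSPA1A and HSPA1B, a correlation near 0 is no finding. These correlations are a description and carry no test.

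Of 100 other chaperone-pathway genes listed, 93 were tested. Under TSA, 22 were called higher and 12 lower, with a median log2 fold change of 0.23; over all genes tested, 16.2% were called higher and 13.5% lower, so the count of lower genes was near the background. Under E6R, edgeR called 0. At an unadjusted p under 0.05 there were 25, of which 24 were higher (17.4% of all genes in either direction and 8.04% higher). DESeq2, which called 415 genes in all (317 higher), called 7 of them, all higher. Of the 93, 74 lay above 0 (52.0% of all genes did) with a median of 0.33. In cells with 2% to 6% mitochondrial UMIs, 57 of 86 lay above 0 (51.3% of all genes did) with a median of 0.09. The heat shock factors themselves did not pass the test: HSF1 gave 54.5 and 42.6 CPM under DMSO, 47.8 and 32.6 under TSA, and 45.7 and 51.1 under E6R, and HSF2 was at log2 0.70 under TSA (SE 0.268, adjusted p = 0.0856). BAG3, an exchange factor induced by HSF1, was not called either, with 40.3 and 38.6 CPM under DMSO, 48.3 and 49.4 under TSA, and 36.9 and 23.1 under E6R. HSPA6, a strictly heat-induced Hsp70, averaged under 1 CPM in every group and was not tested.

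By family under TSA, where 16.2% of all genes were called higher and 13.5% lower, co-chaperones of Hsp70 and Hsp90 had 8 of 18 higher and 1 lower, other Hsp40 genes 6 of 19 higher and 3 lower, and other Hsp70 and Hsp110 genes 3 of 11 higher and 0 lower. STIP1, which bridges Hsp70 and Hsp90, rose 3.25-fold (121 and 157 CPM under DMSO, 395 and 510 under TSA; adjusted p = 0.00254). CDC37, which brings kinases to Hsp90, rose 3.07-fold (adjusted p = 0.00205). In the endoplasmic reticulum, HSPA5 (BiP) rose 2.61-fold (adjusted p = 0.00373), HSP90B1 2.32-fold (0.00648) and HYOU1, its Hsp110, 3.32-fold (0.00688). The largest rise was that of HSPA2, a tissue-restricted Hsp70 known from testis, from 6.36 and 9.54 CPM under DMSO to 103 and 83.2 under TSA (11.6-fold, adjusted p = 0.000677). E6R gave 13.2 and 10.4 CPM for it.

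Nucleotide exchange factors had 0 of 10 higher and 3 lower under TSA (16.2% and 13.5% of all genes), among them BAG2, which fell 2.31-fold (adjusted p = 0.0271). Of the called genes with a mean of at least 20 CPM, the largest fall was that of DNAJB14, an Hsp40 of the endoplasmic reticulum membrane (4.33-fold, adjusted p = 0.00130), followed by BAG2. VBP1, a prefoldin subunit, fell 2.27-fold (0.00428) and DNAJC2, a ribosome-bound Hsp40, 2.19-fold (0.00508). Of 7 mitochondrial proteases and their partners, 0 were higher and 2 lower, against the same background, CLPP at log2 -1.08 (adjusted p = 0.0120) and CLPB at -0.98 (0.0130). HSPA9, the mitochondrial Hsp70, was not called, at 239 and 305 CPM under DMSO, 300 and 356 under TSA, and 428 and 437 under E6R. DNAJA1 was not called either (log2 -0.18, SE 0.209). Among 14 genes of the cytosolic chaperonin TRiC and of prefoldin, 1 was higher and 1 lower under TSA, while under E6R all 14 lay above 0 (52% of all genes did). With library totals in place of TMM 13 lay above 0 (43.3% of all genes), and in cells with 2% to 6% mitochondrial UMIs 12 (51.3%). The median log2 of the 14 was 0.51 in the main fit. There edgeR called 0 of them under E6R, with 8 at an unadjusted p under 0.05, all higher (8.04% of all genes). DESeq2, which called 415 genes in all (317 higher), called 2 of them. In cells with 2% to 6% mitochondrial UMIs the median of the 14 was 0.24.

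**Figure D5:**
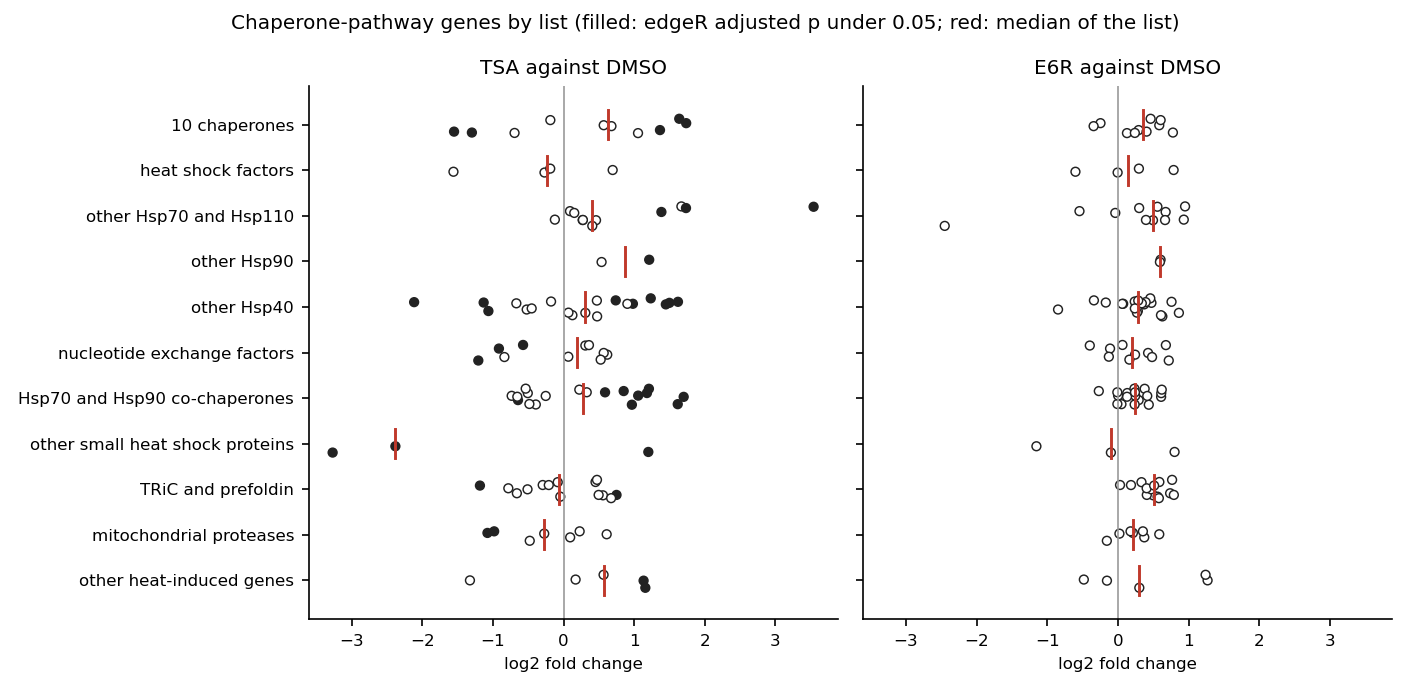
Log2 fold change against DMSO of the 10 chaperone genes and of the tested genes of each pathway list, for TSA (left) and E6R (right); each point is a gene, filled where edgeR's adjusted p was under 0.05, and red bars are list medians. Filled points lie on both sides of 0 under TSA and are absent under E6R, where the TRiC and prefoldin points all lie above 0.

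By Euclidean distance of centred log2 CPM over the 6 libraries, the gene most like each member was looked for among 4266 genes with a mean of at least 50 CPM. IK was nearest to HSPA8 (0.147) and YKT6 to DNAJB1 (0.158). MAX was nearest to HSPA1B (0.172), GSTM3 to HSPA1A (0.329) and LSM7 to HSPH1 (0.147). DYNLL2 was nearest to HSP90AA1 (0.207), ECT2 to HSP90AB1 (0.112) and SET to HSPB1 (0.244). PUM3 was nearest to HSPD1 (0.146) and MRPL34 to HSPE1 (0.151). No chaperone gene was among the nearest 3 genes of another. HSPA1A and HSPA1B averaged under 50 CPM, so they were not candidates and could not appear there. The closest members to each other were HSPA8 and HSPA1B (0.446), then HSPH1 and HSPD1 (0.646) and HSPB1 and HSPE1 (0.716); these distances describe 6 libraries and carry no test.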

How the data were processed

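Seq-Well S3 libraries of SK-N-BE(2)-C cells (DMSO, TSA, E6R; 2 each) were deposited as whole-number UMI counts per gene and barcode, not normalized, made with STARsolo 2.7.9a on GRCh38 per the submitters' processing notes; annotation, strand and multimapping rules are not given in the sources used here. A barcode counted as a cell from 500 genes and up to 20% UMIs of the 13 mitochondrial genes. Doublets were not called, and dropping the 5% deepest cells per library stood in for that. The 1% of cells with most UMIs held 12.1% and 8.77% of UMIs under DMSO, 11.0% and 15.6% under TSA, and 10.2% and 22.5% under E6R. Without the 5% deepest, E6R against DMSO stood at log2 0.60 for HSPE1, 0.55 for HSPD1, 0.60 for HSP90AB1 and 0.455 for HSPA8. Counts were summed per library and tested with edgeR 4.0.16 in R 4.3.3 (quasi-likelihood test, TMM, filterByExpr, all 6 libraries in 1 fit, group as the only term, Benjamini-Hochberg over 16763 genes, called under 0.05). The common biological coefficient of variation was 0.288, standard errors came from the F statistic, and adjusted p-values in the text are from this test unless DESeq2 1.42.0 is named. The script was tested on simulated data.

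Deviations of same-numbered libraries correlated over 7512 genes (r = 0.242 for DMSO and TSA, 0.564 for DMSO and E6R, 0.166 for TSA and E6R). The replicate numbers of the titles may therefore pair the libraries. What these correlations come from was not tested. The main fit has no block, and the blocked fit is given where it changes a call. Library sums of 4206366 UMIs or more leave abundant genes limited by the spread between libraries. All 10 genes were named; of the other lists, the 4 largest rises and falls per contrast against DMSO with a mean of at least 20 CPM, and HSF1, HSF2, BAG3, HSPA5, HSP90B1, HSPA9, DNAJA1 and STIP1 always. HSPA6, CLPP and CLPB were named after their values were seen. The genes and lists were chosen with earlier results of these data known. Coordinates are from GENCODE 29, which held 34616 of the files' gene IDs.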

Additional observations from a re-analysis of the deposited data

How the results depend on the processing

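Each fold change was recomputed under 21 alternatives, 1 of them (cells with 2% to 6% mitochondrial UMIs) chosen after seeing the data. For TSA against DMSO, 183 of the recomputed values kept direction and side of the threshold, 26 came to pass it and 1 no longer passed it. For E6R against DMSO the numbers were 197 and 4, with 9 changes of sign; for E6R against TSA 195, 5 and 9, with 1 change of sign. HSPA8, DNAJB1, HSPA1B and HSPB1 were called under TSA in 21 of 21.

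Chaperone genes called under TSA (5) were 9 with DESeq2 and 9 with the replicate block, and under E6R (0) were 3 with DESeq2 and 1 without the low-count filter; for E6R against TSA (8) leaving out 1 library gave 4 to 8, and the block 9. All genes called under TSA (4975) ranged from 1416 to 6027 with 1 library left out, falling by over 1.5 times without either DMSO or either TSA replicate. They were 5278 with DESeq2, 6047 with the block, 3248 in cells with 2% to 6% mitochondrial UMIs and 3301 in cells thinned to 1000 UMIs. For E6R against DMSO (0) they were 415 with DESeq2, 1095 without the low-count filter, 19 with the block, 1 with all barcodes, 1 without mitochondrial and ribosomal protein genes, and 0 to 3 with 1 library left out. For E6R against TSA (6408) they were 2628 to 6385 with 1 library left out, 4140 in cells with 2% to 6% mitochondrial UMIs and 4106 in thinned cells. With the block, genes called for E6R against TSA were 7567. The share of UMIs in the 10 genes under TSA (1.95%) was 1.89% over all barcodes and 2.11% without mitochondrial genes. The cause was not tested for these. Settings with other cells, other libraries or another filter, and DESeq2, could also change the number of genes tested.

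With library totals in place of TMM, the median log2 fold change of all genes moved from -0.01 to -0.32 for TSA, from 0.03 to -0.10 for E6R against DMSO and from -0.09 to 0.09 for E6R against TSA; calls under TSA were 1731 higher and 3351 lower in place of 2720 and 2255. No chaperone gene changed sign under TSA. Signs turned for E6R against DMSO in HSPA1A (-0.0035 with library totals, -0.26 in cells with 2% to 6% mitochondrial UMIs, -0.10 without the 5% of cells with most UMIs, -0.18 in thinned cells), HSPA1B (-0.36 in cells with 2% to 6%, -0.11 in thinned cells), DNAJB1 (0.048 without DMSO replicate 2 and 0.033 without E6R replicate 1, in a range of -0.40 to 0.048 with 1 library left out) and HSP90AA1 (0.019 without DMSO replicate 2, in a range of -0.48 to 0.019), and for E6R against TSA in HSP90AB1 (-0.0066 with sums thinned to the smallest). Shares of cells with a UMI moved with the UMIs kept per cell, as thinning sets them. Depth limits HSPA1A and HSPA1B most, at 95 to 133 UMIs per DMSO library.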
